A study of Arabidopsis thaliana with 3 samples.

Results

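AT1G04770 and BCAT4 are nuclear genes tied to sulphur use in Arabidopsis thaliana, and their levels were read on 3 arrays of leaf RNA from plants 2 weeks old. AT1G04770 is related to SDI1, a gene induced by sulphur deficiency, and BCAT4 (AT3G19710) encodes a methionine aminotransferase. Both genes were chosen by name with their signals on these arrays already known, and each has 1 probe set, so 2 of 22746 compared probe sets are described. Because the ratios between arrays chose the genes, those ratios are given as descriptions without a test.

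The arrays hold leaf RNA of 3 genotypes. The first is Col-0, the laboratory accession, labelled as untreated. The other arrays hold transgenic Col-0 lines made to overexpress the MAP kinase kinase MKK2, either as wild-type protein or as a constitutively active form. One, named MKK2-A here, carries w.t.4 in its title but EE4 as its source, and for the other, named MKK2-B, these labels are the other way round. These names stand for the arrays and say nothing of the form of MKK2. The form of MKK2 in each line is therefore unsettled, and no direction between the forms is given. The sources used here give neither the transgene's promoter nor the number of plants behind each RNA. Each genotype has 1 array, so no value has a replicate error, no p-value can be had and no difference can be set against biological spread. No probe set is named as MKK2 here, so the level of the transgene was not checked.

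Plants take up sulphate, activate it with ATP sulfurylase, reduce it through sulfite to sulfide and build it into cysteine, from which methionine and glutathione are made. Members of the cabbage family also put sulphur into glucosinolates, defence compounds that myrosinases split when tissue is damaged. BCAT4 removes the amino group of methionine in the first step that lengthens its side chain, and the lengthened methionines are the precursors of the aliphatic glucosinolates. SDI1 is known to hold back aliphatic glucosinolate synthesis when sulphur is scarce, by binding the transcription factor MYB28.

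The signal of AT1G04770 was 384 in Col-0, 103 in MKK2-A and 138 in MKK2-B. Col-0 stood far above both lines, and MKK2-A lay lowest. All 3 signals were above 25, the level under which signals were treated as unreadable and set to 25. AT1G04770 was 3.72-fold lower in MKK2-A than in Col-0 and 2.78-fold lower in MKK2-B. Its level was thus 26.9% of Col-0 in MKK2-A and 36.0% in MKK2-B. Both ratios use the same Col-0 array, so an error of that array would enter both alike. In RNA of whole leaves, fewer cells of a type and less RNA per cell cannot be told apart.

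These ratios lay near the low end of all compared probe sets. The MKK2-A ratio of AT1G04770 ranked number 4 from the lowest among 22746, and its MKK2-B ratio ranked number 24. A total of 5393 probe sets had a signal of 100 or more on every array, and AT1G04770 is one of them. Of these bright probe sets, 2 had a lower ratio in MKK2-A and 6 in MKK2-B. The central 95% of bright probe sets lay between 0.668-fold and 1.91-fold in MKK2-A and between 0.650-fold and 1.72-fold in MKK2-B, a range that holds array noise and real differences together. A difference of 2-fold or more below Col-0 was seen at 0.391% of all probe sets in MKK2-A and at 0.536% in MKK2-B. AT1G04770 is 1 of those probe sets in each line, and BCAT4 is in neither group.

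Between the lines AT1G04770 differed little. Line A was 1.34-fold below MKK2-B, a log2 ratio of -0.42. That lies inside the central 95% of bright probe sets for this comparison, which ran from -0.49 to 0.58 on the log2 scale. Of the bright probe sets, 4.32% had a lower ratio of MKK2-A to MKK2-B, so the value lay toward the low end of that range.

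**Figure D1:**
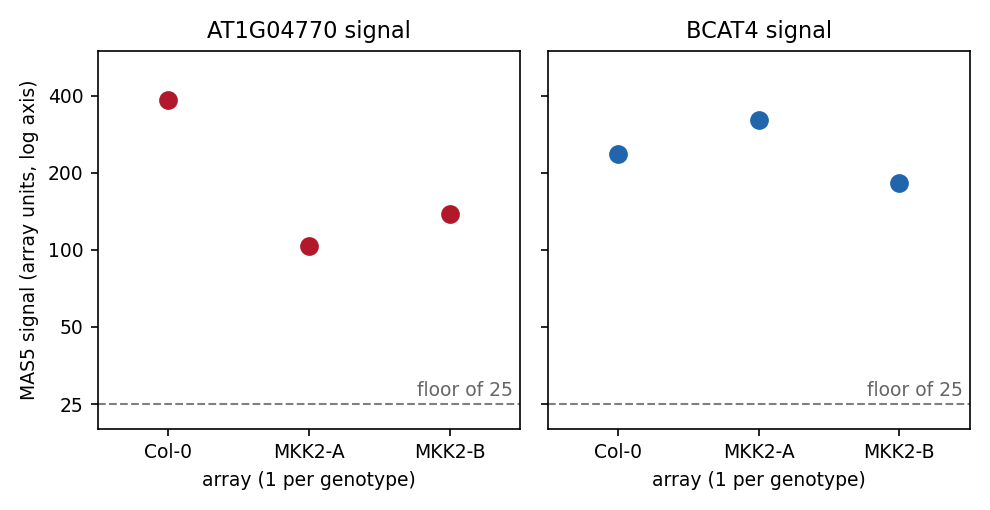
MAS5 signal in array units, on a log axis, of AT1G04770 (left panel) and BCAT4 (right panel) on the arrays of Col-0, MKK2-A and MKK2-B, with 1 point per array and the floor of 25 as a dashed line. AT1G04770 is highest in Col-0 at 384, while BCAT4 is highest in MKK2-A at 321 and lowest in MKK2-B at 182; levels of different probe sets cannot be compared with each other.

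BCAT4 showed another order of the arrays. Its signal was 238 in Col-0, 321 in MKK2-A and 182 in MKK2-B. Line A was above Col-0 and MKK2-B below it, so the control lay between the lines. BCAT4 was 1.35-fold higher in MKK2-A than in Col-0, a log2 ratio of 0.43, and 1.31-fold lower in MKK2-B, a log2 ratio of -0.39. Neither value reached 2-fold, and both lay inside the central 95% of bright probe sets. Higher ratios than that of BCAT4 were found at 7.49% of bright probe sets in MKK2-A, and lower ones at 10.1% in MKK2-B. Neither ratio thus stood outside the spread of bright probe sets.

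The largest BCAT4 difference was between the lines. Line A was 1.76-fold above MKK2-B, a log2 ratio of 0.82, which exceeded the upper limit of 0.58 for the central 95% of bright probe sets. Of 5393 bright probe sets, 42 had a higher ratio of MKK2-A to MKK2-B. The ratio still fell short of 2-fold, a difference that 0.585% of all probe sets showed upward and 0.18% downward. Whether it would recur in other plants of these lines was not measured.

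The order of the arrays was also counted over bright probe sets. AT1G04770 fell in the order Col-0, MKK2-B, MKK2-A, which 18.9% of bright probe sets shared. The BCAT4 order of MKK2-A, Col-0, MKK2-B was found at 13.9% of them, the lowest share of the 6 possible orders, which ranged up to 21.5%. Set side by side as log2 ratios to Col-0, AT1G04770 had -1.89 and BCAT4 had 0.43 in MKK2-A, a gap of 2.32. In MKK2-B the values were -1.47 and -0.39, a gap of 1.08. The gap between the genes was wider in MKK2-A, by 1.24 on the log2 scale. That change was made up of 0.82 from BCAT4 and 0.42 from AT1G04770. These are the ratios between the lines already given, so the change in the gap is no further result.

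**Figure D2:**
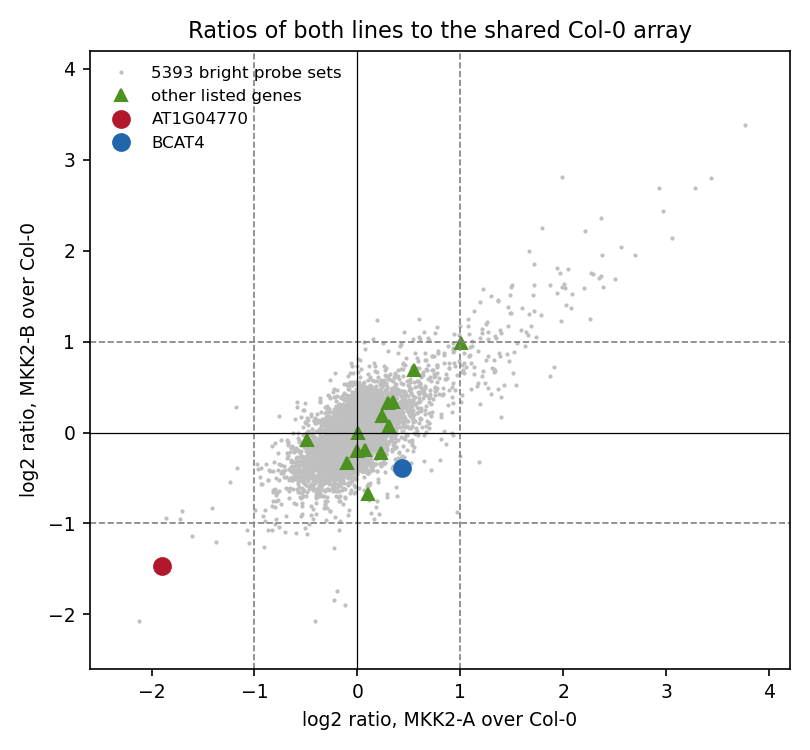
Log2 ratio of MKK2-A to Col-0 (horizontal) and of MKK2-B to Col-0 (vertical) for 5393 probe sets with a signal of 100 or more on every array (grey), for AT1G04770 (red), BCAT4 (blue) and the other listed genes with a signal of 25 or more on an array (green triangles). Dashed lines mark 2-fold; AT1G04770 lies at -1.89 and -1.47 outside the main cloud, and BCAT4 lies at 0.43 and -0.39. Both axes share the Col-0 array, so the slant of the cloud is no result.

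Genes with a like profile were sought among 2634 other genes that have a bright probe set naming 1 gene. Likeness was the straight-line distance between the pairs of log2 ratios to Col-0, so it rests on 3 arrays only. AT1G04770 had few like it, with 1 gene within a distance of 0.5. That gene, AT3G45210, had signals of 320 in Col-0, 105 in MKK2-A and 145 in MKK2-B, at a distance of 0.44. The next were AT4G34950 at 1.01, AT3G44450 at 1.10, AT1G49200 at 1.14 and AT2G29670 at 1.17. All 5 were lower than Col-0 in both lines, from 1.83-fold to 3.05-fold in MKK2-A and from 1.46-fold to 2.40-fold in MKK2-B. They were picked for ratios near those of AT1G04770, so their place below Col-0 follows from the search and is no separate result. Nor is the count of 1 within 0.5, since AT1G04770 was chosen with its ratios known, and few genes have ratios so far from 0.

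BCAT4 had far more genes near it, with 394, or 15.0%, within the same distance. Its ratios to Col-0 lie inside the central 95% of bright probe sets, where genes are dense. The nearest was CCS, the copper chaperone of superoxide dismutase, with signals of 173 in Col-0, 240 in MKK2-A and 126 in MKK2-B. It was followed by AQI, AT5G61660, SAH7 and nad4, a mitochondrial gene for a subunit of respiratory complex I. Their distances ran from 0.077 for CCS to 0.12 for nad4. With so many genes this close, the names of the nearest 5 say little about BCAT4.

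Relatives of AT1G04770 gave no second reading. Of 5 genes listed as the SDI1 family, 3 have a probe set naming 1 gene. AT3G51280 had signals of 16.5 in Col-0, 6.20 in MKK2-A and 16.6 in MKK2-B, all under the floor. AT5G44330 stayed at 0.872 or less on every array. No probe set is named as SDI1 here, so the level of the best-known gene of the family is not reported.

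Genes of sulphate assimilation and the sulphur deficiency response were next. Of 41 listed genes, 5 have a named probe set, and 0 of these were 2-fold or more from Col-0 in either line, or 2-fold apart between the lines. Of all probe sets, 1.4% were that much higher and 0.391% lower in MKK2-A, and 0.941% and 0.536% in MKK2-B. Between the lines 0.585% were higher in MKK2-A and 0.18% lower. A count of 0 among 5 is near this background, and 1 of the 5, BGLU28, was under the floor and could not be called. SIR encodes sulfite reductase, the enzyme that makes sulfide, and had signals of 1012 in Col-0, 1007 in MKK2-A and 877 in MKK2-B. Its level was thus nearly the same in Col-0 and MKK2-A, at a log2 ratio of -0.01, while MKK2-B stood at -0.21. The ATP sulfurylase genes APS3 and APS4, which act at the entry of the pathway, had log2 ratios of 0.30 and 0.08 in MKK2-A. In MKK2-B they had 0.08 and -0.19.

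MGL, methionine gamma-lyase, breaks methionine down and was the listed sulphur gene furthest from Col-0 in MKK2-B. Its signal was 94.5 in Col-0, 102 in MKK2-A and 59.2 in MKK2-B. Line B was thus 1.60-fold below Col-0, while MKK2-A lay close to it. Like BCAT4 it was higher in MKK2-A than in MKK2-B, 1.72-fold. So were APS4, APS3 and SIR of the same list, at log2 ratios of 0.27, 0.23 and 0.20 between the lines. The values of APS4, APS3 and SIR lie inside the central 95% of bright probe sets for this comparison, from -0.49 to 0.58. Orders with MKK2-A above MKK2-B are common, at 21.5%, 15.4% and 13.9% of bright probe sets. BGLU28, a beta-glucosidase gene used as a marker of sulphur deficiency, was under the floor on all arrays, at 2.00 in Col-0, 3.95 in MKK2-A and 11.9 in MKK2-B. The median log2 ratio of the 5 genes was 0.08 in MKK2-A and -0.19 in MKK2-B, while that of all probe sets was 0 and that of bright ones -0.03 in each line. Genes known as strong markers of sulphur shortage, such as LSU1, APR3 and SULTR1;1, have no probe set named here.

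The glucosinolate list holds 53 genes, of which 7 including BCAT4 have a named probe set. In MKK2-A 1 of the 7 was 2-fold or more higher than Col-0 and 0 were lower, against 1.4% and 0.391% of all probe sets. In MKK2-B 0 were 2-fold higher and 0 were lower, against 0.941% and 0.536%. Between the lines 0 were 2-fold apart, against 0.585% of all probe sets higher in MKK2-A and 0.18% lower. Counts of 0 among 7 genes are near this background. The gene that reached 2-fold was GTR1, a transporter that imports glucosinolates into cells and, with GTR2, loads them into seeds. Its signal was 120 in Col-0, 243 in MKK2-A and 239 in MKK2-B. The lines were alike and both stood above Col-0, 2.02-fold for MKK2-A and 1.98-fold for MKK2-B, on either side of the 2-fold line. GTR1 therefore did not share the BCAT4 pattern.

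GTR2, the close relative of GTR1 in glucosinolate transport, had signals of 191 in Col-0, 178 in MKK2-A and 152 in MKK2-B. Its log2 ratios of -0.10 and -0.33 were small and below 0, unlike those of GTR1. UGT74B1, which adds the glucose of the glucosinolate core, had log2 ratios of 0.24 in MKK2-A and 0.18 in MKK2-B. AT2G31790, also on the list, had signals of 121 in Col-0, 177 in MKK2-A and 195 in MKK2-B. It was 1.46-fold and 1.61-fold higher than Col-0, so both lines lay above the control.

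GSTU20 was the other gene of the glucosinolate list in the BCAT4 order of arrays. MGL and APS4 of the sulphur list and CBL of the methionine list had that order too, though the arrays were almost equal for CBL. Of bright probe sets, 13.9% had it. GSTU20 encodes a glutathione S-transferase of core glucosinolate synthesis, and its signal was 324 in Col-0, 380 in MKK2-A and 278 in MKK2-B. Its log2 ratios to Col-0 were 0.23 and -0.22, smaller than those of BCAT4 and on the same sides. AOP3, a dioxygenase gene of side-chain modification, was under the floor on all arrays, with a highest signal of 12.3. The median log2 ratio of the 7 genes was 0.24 in MKK2-A and 0.06 between the lines. In MKK2-B the median was the 0 that the floor gave AOP3, which is no reading of the list. No other gene of methionine chain elongation on the list, such as MAM1 or BAT5, has a named probe set, nor has MYB28, so BCAT4 is the only reading of that step.

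**Figure D3:**
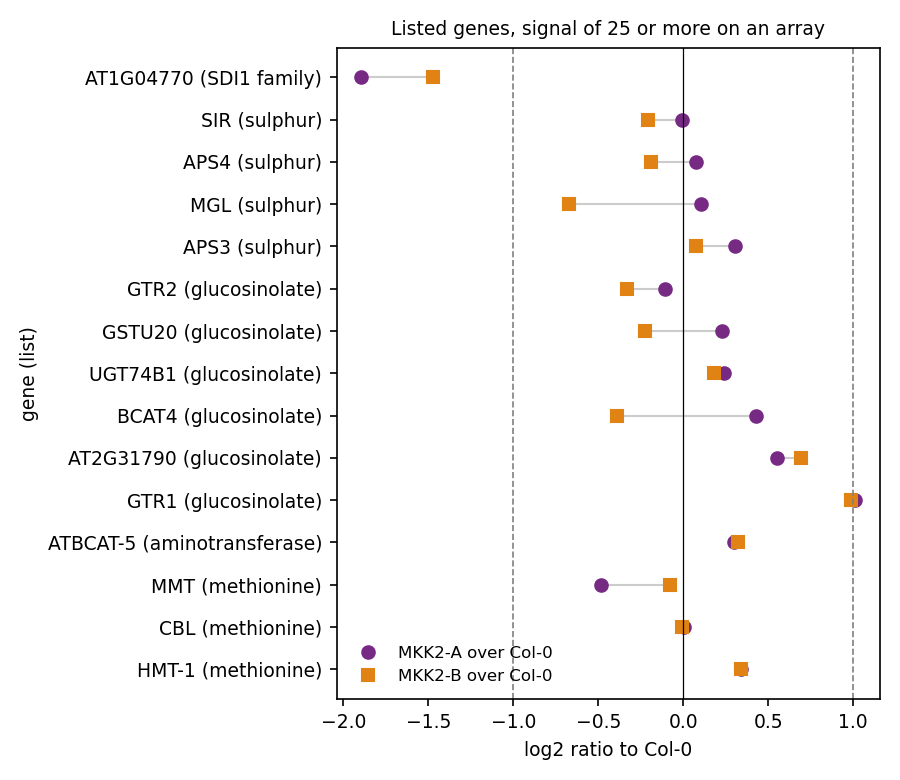
Log2 ratio to Col-0 of each listed gene with a signal of 25 or more on an array, for MKK2-A (circles) and MKK2-B (squares), with the gene's list in brackets and dashed lines at 2-fold; each point rests on 1 array of the line and the Col-0 array. AT1G04770 lies below the lower line in both, GTR1 lies at the upper line in both, and BCAT4 has its lines on opposite sides of 0.

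Branched-chain aminotransferases other than BCAT4 act mainly in leucine, isoleucine and valine metabolism. Of 7 family members 3 have a named probe set, and 0 of the 3 reached 2-fold in any comparison, against 0.18% to 1.4% of all probe sets in each direction. ATBCAT-5 had signals of 86.3 in Col-0, 106 in MKK2-A and 108 in MKK2-B. Unlike BCAT4 it was alike in both lines, with log2 ratios of 0.30 and 0.32. AT1G50110, the other family member measured, was under the floor throughout, with a highest signal of 14.7.

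Methionine metabolism supplies the substrate of BCAT4. Of 19 listed genes 3 have a named probe set, and 0 reached 2-fold, against the same 0.18% to 1.4% of all probe sets. CBL, cystathionine beta-lyase, makes homocysteine on the way to methionine and had signals of 488 in Col-0, 489 in MKK2-A and 485 in MKK2-B. The 3 arrays were thus almost equal for it, with log2 ratios of 0.00 and -0.01. MMT, which makes S-methylmethionine, had signals of 273, 195 and 258 in the same order, so MKK2-A was 1.40-fold below Col-0 while MKK2-B was near it. HMT-1, a homocysteine methyltransferase gene, was close to the floor at 29.6, 37.5 and 37.4.

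Larger families that take part in sulphur chemistry were added after the values were known. Glutathione S-transferases join glutathione, a sulphur peptide, to other molecules, and 14 genes of the family are named, 8 of them under the floor on all arrays. None of the 14 reached 2-fold in a comparison, against 0.18% to 1.4% of all probe sets in each direction, and the 8 under the floor could not. Their log2 ratios ran from 0 to 0.23 in MKK2-A and from -0.22 to 0.45 in MKK2-B. GSTU20 held both the highest value in MKK2-A and the lowest in MKK2-B. GSTU16 and GSTU18 had log2 ratios of 0.45 and 0.38 in MKK2-B. Beta-glucosidases include the myrosinase class, and 20 genes named BGLU were compared, 12 of them under the floor throughout. None reached 2-fold, against the same background, and the 12 could not. The furthest from Col-0 was BGLU40 in MKK2-B, with signals of 153 in Col-0, 171 in MKK2-A and 254 in MKK2-B.

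Genes beside each locus were read to see whether a stretch of chromosome moved with it. The gene order is that of the TAIR10.1 reference, and no coordinates are given because the sources used here do not name the build of the array design. Of the 12 protein-coding genes nearest to AT1G04770 on chromosome 1, 6 on each side, 5 have a named probe set, and 1 of these, AT1G04700, was under the floor on all arrays. None was 2-fold from Col-0 in either line, against 0.391% to 1.4% of all probe sets in each direction, with log2 ratios from -0.55 to 0.14 in MKK2-A and from -0.44 to 0.51 in MKK2-B. The 4 neighbours above the floor all lie on the same side of AT1G04770, from 2 to 5 genes away, so the other side gave no reading. AT1G04780, 2 genes away, had signals of 147 in Col-0, 127 in MKK2-A and 108 in MKK2-B. It was below Col-0 in both lines, with log2 ratios of -0.21 and -0.44.

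Of the 12 genes around BCAT4 on chromosome 3, 7 have a named probe set and 4 of these were under the floor on all arrays. AT3G19680, 3 genes away, had signals of 312 in Col-0, 629 in MKK2-A and 394 in MKK2-B. Its ratio to Col-0 was 2.01-fold in MKK2-A and 1.26-fold in MKK2-B. The order of the lines was that of BCAT4, but MKK2-B lay above Col-0 and not below it. AT3G19740 and AT3G19790 had log2 ratios of 0.06 and 0.29 in MKK2-A, and of 0.24 and 0.32 in MKK2-B.

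**Figure D4:**
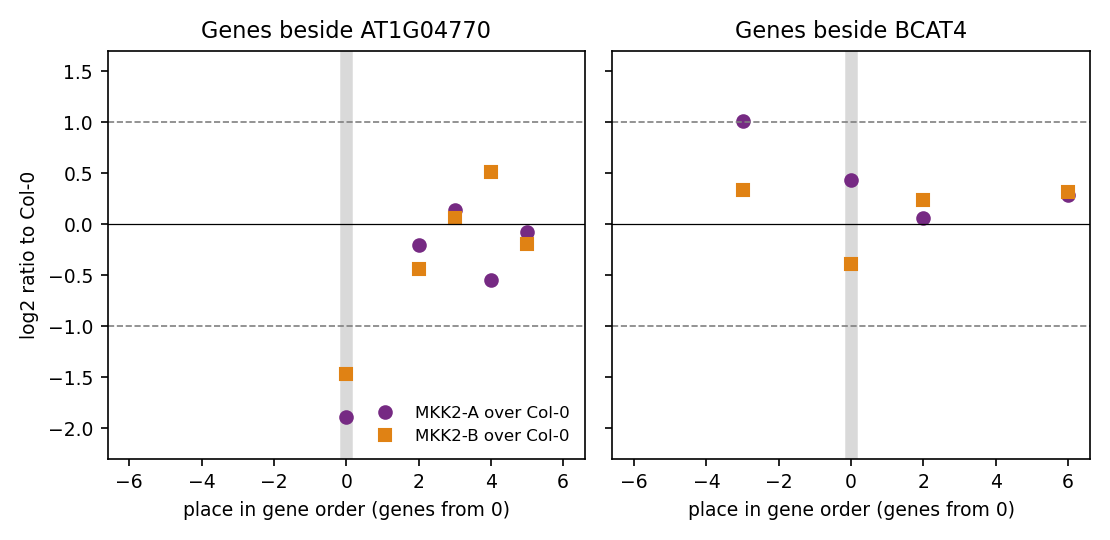
Log2 ratio to Col-0 of AT1G04770 (left, at 0 on the horizontal axis) and BCAT4 (right, at 0) and of the genes up to 6 places away in gene order that had a signal of 25 or more on an array, for MKK2-A (circles) and MKK2-B (squares), with 1 array each. AT1G04770, at -1.89 and -1.47, lies far below its plotted neighbours, which are all on the same side of it. The neighbour of BCAT4 that reaches 2-fold in MKK2-A is AT3G19680.

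The tissue label was checked against marker genes, few of which are named on the array. The 3 measured leaf genes, RCA, PSAE-1 and LHCB4.1, had signals from 4324 to 5899, and their summed signal was 15607 in Col-0, 15092 in MKK2-A and 16353 in MKK2-B. Both measured root genes, EXPA7 and PYK10, were under the floor on every array. The 2 measured guard cell genes summed to 430 in Col-0, 356 in MKK2-A and 342 in MKK2-B, and the vascular gene SWEET11, the 1 measured of 4, had signals of 1520, 1057 and 1212. SWEET11 and the guard cell sum were thus higher in Col-0 than in both lines, as AT1G04770 was, by 1.44-fold and 1.25-fold for SWEET11. The orders with Col-0 highest are common, at 21.5% and 18.9% of bright probe sets. The guard cell sum was lowest in MKK2-B, and most of it came from GC1, at 375 in Col-0, 315 in MKK2-A and 290 in MKK2-B. The other guard cell gene, FAMA, had 55.0, 41.0 and 52.4 in the same order. FAMA and SWEET11 were thus lowest in MKK2-A, as AT1G04770 was, while GC1 was not. The part of these markers in the AT1G04770 difference was not tested. None of the listed flower or seed markers could be read, as none has a named probe set.

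The ratios of both genes changed little under the other settings, while their ranks moved more. The alternative floors could not change these ratios, because every signal of both genes lay above them. The deposited values could hardly change them either, since rescaling changed every array nearly alike. Only quantile normalization, loess centring and adding a constant to every signal could thus move the ratios. AT1G04770 had log2 ratios from -1.89 to -1.74 in MKK2-A and from -1.48 to -1.37 in MKK2-B across the main setting and 6 alternatives of scaling and of handling dim signals. Its rank from the lowest ran from 4 to 8 in MKK2-A and from 15 to 70 in MKK2-B. BCAT4 ran from 0.40 to 0.46 in MKK2-A, from -0.39 to -0.34 in MKK2-B and from 0.77 to 0.82 between the lines, never reaching 2-fold. Its rank from the lowest ran from 21069 to 21928 in MKK2-A and from 1171 to 3354 in MKK2-B. Between the lines the rank of AT1G04770 ran from 637 to 3097 and that of BCAT4 from 22281 to 22613.

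**Figure D5:**
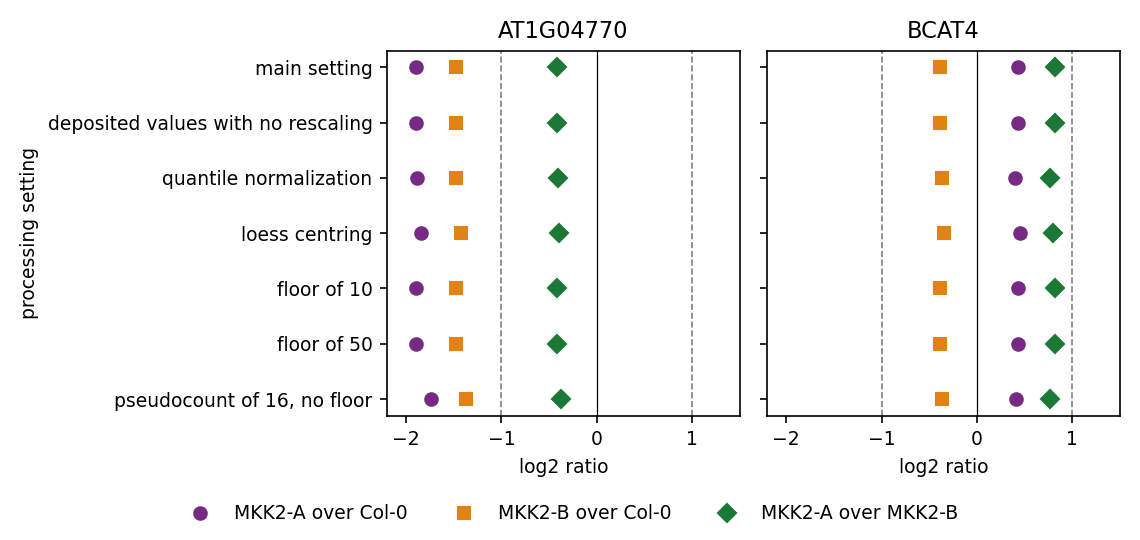
Log2 ratios of AT1G04770 (left) and BCAT4 (right) for MKK2-A over Col-0 (circles), MKK2-B over Col-0 (squares) and MKK2-A over MKK2-B (diamonds) under the main setting and 6 alternatives, with dashed lines at 2-fold. AT1G04770 stays below -1 in both lines under all 7 settings, and no BCAT4 value reaches 2-fold. The alternative floors could not move these ratios, and the deposited values could hardly do so.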

How the data were processed

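Leaf RNA was measured on 3 arrays, 1 per genotype. The values deposited by the authors are linear intensities, 1 for each probe set on each array, from MAS5 per the submitters' processing notes. The sources used here do not give its version, the scanner settings or detection calls. The 2% trimmed mean of the deposited intensities was 100.01 on every array, and each array was rescaled to exactly 100, which assumes a like bulk of signal in every sample. Any signal under 25 was raised to 25, and log2 ratios were then formed. Of 22810 probe sets, 64 controls were left out. The platform annotation, updated through TAIR10.1 gene numbers, named 1 gene for 13513 probe sets, several for 503 and none for 8730, so the lists cover 20 of 122 genes. Where a gene has several probe sets, the brightest was used. No depth exists for arrays, whose number limits the precision.

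The genes and lists were chosen with earlier results of these data known. Named genes are both members, listed genes with a signal of 25 or more on an array (those under it are also named where a family or marker turns on them), and the 5 nearest profiles to each member. The families and neighbours were added after seeing values. A probe set was called at 2-fold, and no test was possible. The counting was tested on simulated data. The alternatives tried were the deposited values as they are, quantile normalization, centring by loess with a span of 0.4, a floor of 10 or of 50, adding 16 to every signal in place of a floor, calling at 1.5-fold or at 3-fold, leaving out suffixed probe sets such as _s_at, and averaging a gene's probe sets. Computations used Python 3.11.15, numpy 2.4.6, pandas 2.3.3, scipy 1.17.1, statsmodels 0.14.6 and matplotlib 3.10.9.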

Additional observations from a re-analysis of the deposited data

Results flagged for a closer look

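BCAT4 and GSTU20 were flagged because MKK2-A lay above Col-0 and MKK2-B below it, each by at least 0.2 on the log2 scale. That minimum was set after the values were seen, and MGL, APS4 and CBL had the same order without reaching it in both lines. The order was found at 13.9% of bright probe sets, and the share that also passes the minimum was not counted. Nearest profiles of BCAT4 such as CCS, at 0.47 and -0.45, pass it too. The log2 ratio of BCAT4 was 0.43 in MKK2-A and -0.39 in MKK2-B, and that of GSTU20 was 0.23 and -0.22. The difference between the lines was not tested, since each has 1 array.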

How the results depend on the processing

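Of 156 values recomputed under an alternative, 148 kept their direction and their side of 2-fold, or, for counts, stayed within 1.5 times, and 8 counts moved. Many of the 148 could not have moved, so their number is no measure of robustness. Each listed gene has 1 probe set without a suffix, so leaving out suffixed probe sets or averaging could change no count. A count of 0 at 2-fold stays 0 at 3-fold. Rescaling changed every array nearly alike, so the deposited values gave almost the same ratios. With a pseudocount of 16, or at 3-fold, 0 glucosinolate genes were higher in MKK2-A than Col-0, where 1 was counted. In MKK2-B the count was 1 under quantile normalization and under loess centring, where GTR1 was 2.03-fold and 2.05-fold above Col-0, and 2 at 1.5-fold, in place of 0. At 1.5-fold, 1 glucosinolate gene and 1 sulphur gene were higher in MKK2-A than in MKK2-B, and 1 sulphur gene was lower in MKK2-B than in Col-0, in place of 0 each. These counts changed because GTR1 lies next to the 2-fold line and, at 1.5-fold and at 3-fold, because the line was moved. The share of all probe sets past 1.5-fold was not counted, so the counts at 1.5-fold cannot be set against a background. Over all probe sets, 318 were higher and 89 lower in MKK2-A than in Col-0, against 383 and 50 under loess centring, 449 and 508 with a floor of 10, and 245 and 37 with a floor of 50. In MKK2-B 214 were higher and 122 lower, against 405 and 360 with a floor of 10 and 159 and 57 with a floor of 50. Between the lines 133 were higher in MKK2-A and 41 lower, against 276 and 346 with a floor of 10 and 73 and 13 with a floor of 50. No paired analysis was possible because each group has 1 array, and no array could be left out. Dim genes are limited by the floor, under which values have no order.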
